A study of Homo sapiens with 6 samples.

Results

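The regions described here are the 82-kDa ChAT peaks of Aβ1–42-treated cells that overlap a SATB1 peak of the same treatment or lie within 1000 nt of one, measured from the end of one peak to the start of the next. They numbered 352 of the 6563 82-kDa ChAT peaks (5.36%) and were chosen by their measured positions, so their number and their nearness to SATB1 are a description and not a tested result. Of the 352 peaks, 247 overlapped a SATB1 peak (3.76% of the list) and are called overlapping, and 105 lay beside one with a gap (1.60%) and are called adjacent. The 4 peak lists of the series held 23953 peaks in all.

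Chromatin immunoprecipitation followed by sequencing was done in SH-SY5Y cells, a human neuroblastoma line, that stably expressed 82-kDa ChAT and had been differentiated for 3 d with retinoic acid. All groups shared that transgene and the retinoic acid. Cells received vehicle, which was Ham's F-12 medium, or 100 nM oligomeric Aβ1–42 for 4 h, with 3 plates per treatment. For each antibody in each treatment 1 library was made, with an in-house C-terminal ChAT antibody or an antibody to SATB1. Peaks also present in the 1 input library of a treatment were discarded from both of its lists. With 1 library per group there was no replicate check, no test between treatments or proteins was possible, and the 95% intervals given below (exact Clopper-Pearson) cover only the counting of peaks. The number of reads behind each peak is unknown from the lists.

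ChAT is the enzyme that makes acetylcholine, and its 82-kDa form is a primate-specific protein found mainly in the nucleus of neurons. SATB1 is a chromatin organiser that binds AT-rich DNA at the bases of chromatin loops, in stretches that come apart easily under torsional strain and are often called scaffold or matrix attachment regions. APP encodes the amyloid precursor protein, from which Aβ1–42 is cut. Alu elements are the most numerous short interspersed repeats of the human genome, with a head that carries promoter boxes and an A-rich tail, and the pentamer CATTC is the unit of classical satellite arrays near centromeres.

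In the APP gene the nearest pair was adjacent. The 82-kDa ChAT peak was 110 nt long with a score of 63.81, and the SATB1 peak was 194 nt long with a score of 71.49, where a score of 50 stands for a peak-calling p-value of 1e-05 and each further 10 for a p-value 10 times smaller. Both lay in intron 13 of the MANE Select transcript and were 160 nt apart. The ChAT score was at percentile 51.4 of its list and the SATB1 score at percentile 70.2 of its list, the percentile being the percent of peaks of the list with an equal or lower score. The SATB1 peak matched an Alu copy, and the ChAT peak, of single-copy sequence, lay on the side of the Alu tail, 160 nt beyond it. Neither vehicle list held an overlapping peak at the APP ChAT peak. Each list came from 1 library, and a missing peak does not show that binding was absent in vehicle-treated cells.

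The DNA under the neighbouring peaks fell into 5 classes, assigned in a fixed order. Pentamer-rich peaks held at least 3 copies of the pentamer CATTC or its reverse complement per 100 nt, Alu-matching peaks aligned to the APP Alu copy at an e-value up to 1e-05, tandem peaks lay in a 1000 nt stretch in which at least 60% of bases were repeated at a fixed distance, and multi-copy peaks had over 50% of their 51-nt words at more than 1 place in the genome. All other peaks are called single-copy, a remainder class. Because the tandem rule is applied to 1000 nt, repeated units confined to a shorter stretch can remain in this class, as they did in the SDK1 and TMEM181 pairs. Examples were read from hg38 on the forward strand.

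Single-copy overlapping pairs in protein-coding genes are shown first because of a feature in their sequence. The selection had not used it, but it was looked for only after the sequences had been seen. Each line spans from the first to the last base of both peaks together, and capitals mark the arms of the longest exact inverted repeat, a stretch followed by its own reverse complement.
CDH18 (chr5:19914468-19914603, intron 2): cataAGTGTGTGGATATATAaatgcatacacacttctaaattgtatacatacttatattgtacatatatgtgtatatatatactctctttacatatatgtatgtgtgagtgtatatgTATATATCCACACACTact
GYG1 (chr3:149002371-149002513, intron 4): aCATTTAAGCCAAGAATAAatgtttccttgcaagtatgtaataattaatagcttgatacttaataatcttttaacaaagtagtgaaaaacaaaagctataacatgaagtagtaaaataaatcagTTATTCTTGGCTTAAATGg
MAGI2 (chr7:78263707-78263784, intron 9): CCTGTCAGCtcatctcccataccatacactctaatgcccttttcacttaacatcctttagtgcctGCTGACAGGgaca
TENM2 (chr5:167349577-167349703, intron 3): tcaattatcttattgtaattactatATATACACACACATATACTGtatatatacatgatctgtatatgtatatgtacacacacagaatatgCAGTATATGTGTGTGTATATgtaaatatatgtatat
The arms were 16 nt long in CDH18, 18 nt in GYG1, 9 nt in MAGI2 and 20 nt in TENM2. In CDH18, GYG1 and MAGI2 the arms stood near both ends of the stretch covered by the peaks.

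In contrast, the overlapping pairs of DOCK1 and SDK1 held no exact inverted repeat with arms of 8 nt or more. Capitals mark the bases covered by both peaks.
DOCK1 (chr10:127339647-127339708, intron 30): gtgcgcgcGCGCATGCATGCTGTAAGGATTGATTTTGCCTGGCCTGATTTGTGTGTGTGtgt
SDK1 (chr7:4089084-4089253, intron 22): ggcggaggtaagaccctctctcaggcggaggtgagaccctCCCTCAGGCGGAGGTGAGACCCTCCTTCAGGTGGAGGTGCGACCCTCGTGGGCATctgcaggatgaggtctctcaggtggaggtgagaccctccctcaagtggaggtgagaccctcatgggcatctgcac
The shared part was 51 nt in DOCK1 and 55 nt in SDK1.

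Repeat-derived overlapping pairs are represented by 2 pentamer-rich pairs mapped to chromosome Y of hg38, again with the bases under both peaks in capitals.
Pentamer-rich pair, chrY:26659009-26659130: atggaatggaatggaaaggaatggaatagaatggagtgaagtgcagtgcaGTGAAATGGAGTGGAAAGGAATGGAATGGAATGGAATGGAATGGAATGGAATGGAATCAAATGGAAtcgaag
Pentamer-rich pair, chrY:11578405-11578523: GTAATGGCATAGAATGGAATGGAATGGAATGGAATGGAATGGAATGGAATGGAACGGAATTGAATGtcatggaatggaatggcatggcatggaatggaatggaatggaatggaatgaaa
In the order shown, these stretches held 11 and 16 copies of the pentamer, both strands counted, in 122 and 119 nt.

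An adjacent pair in a gene is shown with both peaks in capitals and the gap in lower case. It had the shortest gap of the adjacent pairs in a protein-coding gene with both peaks single-copy.
TMEM181 (chr6:158566516-158566783, intron 1, SATB1 peak first, both single-copy): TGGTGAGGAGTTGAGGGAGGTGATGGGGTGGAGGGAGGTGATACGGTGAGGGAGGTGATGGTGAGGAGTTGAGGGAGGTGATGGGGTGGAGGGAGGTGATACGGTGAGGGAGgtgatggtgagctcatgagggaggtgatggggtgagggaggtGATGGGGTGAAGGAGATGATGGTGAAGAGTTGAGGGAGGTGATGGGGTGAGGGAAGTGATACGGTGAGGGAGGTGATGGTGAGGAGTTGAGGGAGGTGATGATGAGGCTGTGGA
The gap in TMEM181 was 42 nt.

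Repeats were present in both kinds of pair but in different proportions from the whole lists. Pentamer-rich sequence made up 107 of the 352 neighbouring ChAT peaks (30.4%, 95% interval 25.6 to 35.5), against 335 of all 6563 ChAT peaks (5.10%). Without the 1% longest peaks of each list the share was 11.8%, and the 107 peaks came from 35 of the 265 loci described below, so the interval, which counts each peak, is too narrow. Single-copy sequence made up 166 (47.2%, 41.8 to 52.5), against 73.8% of the list. Alu-matching peaks numbered 32 (9.09%, 6.30 to 12.6) and their share lay beside that of the list, 9.37%. Tandem peaks numbered 30 (8.52%, 5.82 to 11.9) against 3.47%, and multi-copy peaks 17 (4.83%, 2.84 to 7.62) against 8.26%. Relative to the list, the pentamer-rich class had thus gained the most and the tandem class came next, while the single-copy and multi-copy classes took smaller shares.

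**Figure D1:**
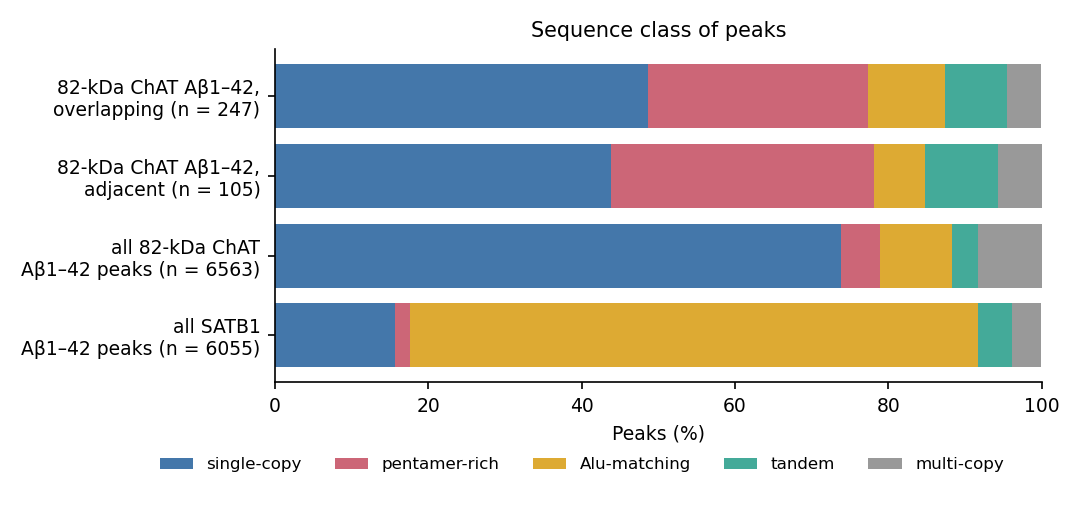
Share of peaks (%, horizontal axis) in each of the 5 sequence classes, for the overlapping and adjacent 82-kDa ChAT peaks, all 82-kDa ChAT peaks and all SATB1 peaks of Aβ1–42-treated cells. Pentamer-rich sequence takes 28.7% of the overlapping and 34.3% of the adjacent peaks against 5.10% of all ChAT peaks, and Alu-matching sequence takes 74.0% of all SATB1 peaks.

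The SATB1 partners departed further from their own list. The 352 ChAT peaks made 381 pairs with 304 different SATB1 peaks, 5.02% (4.48 to 5.60) of the 6055 SATB1 peaks. Alu elements were matched by 54 of the 304 partners (17.8%, 13.6 to 22.5), while 4481 of all 6055 SATB1 peaks matched one (74.0%). Of the Alu-matching SATB1 peaks 1.21% (0.907 to 1.57) had a ChAT neighbour, against 14.4% (12.2 to 16.8) of the single-copy and 55.2% (46 to 64.1) of the pentamer-rich SATB1 peaks. A SATB1 peak on an Alu copy near a ChAT peak, the arrangement seen in APP, was therefore a minority arrangement among the partners.

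Overlapping pairs nearly always joined peaks of the same class, since they covered the same bases. The class was the same in 236 of 247 overlapping pairs (95.5%, 92.2 to 97.8). These were 114 pairs with both peaks single-copy, 71 with both pentamer-rich, 23 with both Alu-matching, 19 with both tandem and 9 with both multi-copy. In adjacent pairs the class was the same in 74 of 105 (70.5%, 60.8 to 79.0). The most frequent mixed combination was the one found in APP, a single-copy ChAT peak beside an Alu-matching SATB1 peak, with 20 pairs, next to 22 pairs with both peaks single-copy and 33 with both pentamer-rich.

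Where peaks overlapped, the shorter one mostly lay largely within the longer one rather than touching its edge. The shared part ranged from 15 to 5132 nt with a median of 123 nt, and in 193 of 247 pairs (78.1%) it covered at least 90% of the shorter peak. The ChAT peak lay inside a longer SATB1 peak in 77 pairs, the SATB1 peak lay inside a longer ChAT peak in 46, and 3 pairs had identical ends. Both ends lay within 10 nt of those of the SATB1 peak in 48 of the 247 pairs (19.4%). Among the 120 single-copy overlapping ChAT peaks, 41 (34.2%) had both ends within 10 nt of the ends of the SATB1 peak. Among the 71 pentamer-rich ones 4 did (5.63%). The pentamer-rich peaks were also longer, with a median of 753 nt against 120 nt for the single-copy peaks.

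**Figure D2:**
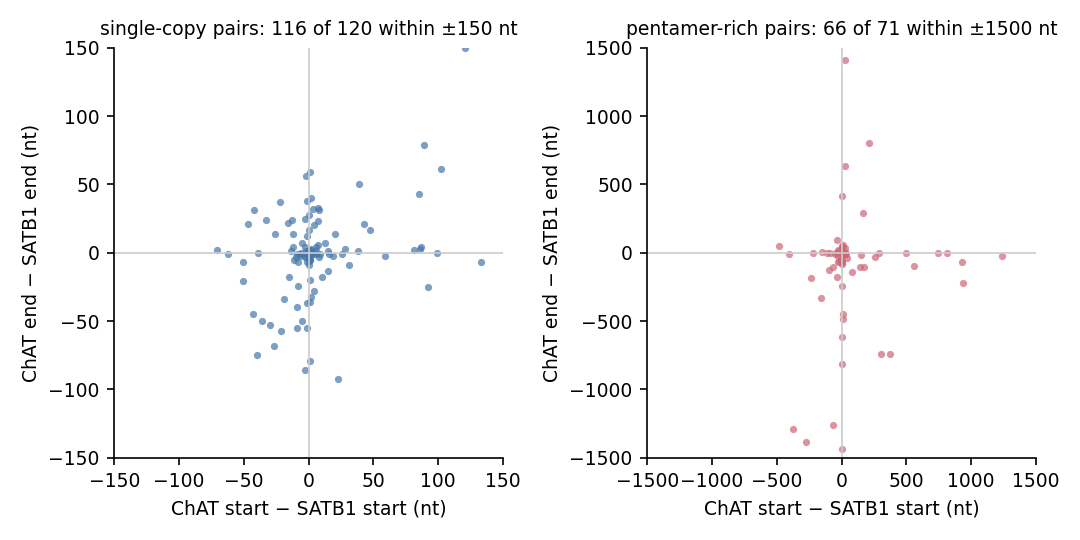
Distance between the starts (horizontal axis, nt) and between the ends (vertical axis, nt) of the 82-kDa ChAT and SATB1 peak of each overlapping pair, 1 point per pair, for single-copy (left) and pentamer-rich (right) ChAT peaks on different scales. The single-copy pairs crowd around 0, with 41 of 120 within 10 nt on both axes, and 116 of 120 and 66 of 71 pairs fall inside the plotted ranges.

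Ends close together were also found in the other pairs of lists. In vehicle-treated cells 82 of the 384 single-copy overlapping ChAT peaks (21.4%) had both ends within 10 nt. Between lists of different treatments the counts were 18 of 54 (33.3%) for vehicle ChAT peaks against Aβ1–42 SATB1 peaks and 6 of 29 (20.7%) for Aβ1–42 ChAT peaks against vehicle SATB1 peaks.

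Inverted repeats were frequent under the single-copy overlapping peaks. They were looked for after the sequences had been seen, so the shares below are a description and not a test. An exact inverted repeat with arms of at least 10 nt was found in the central 200 nt of 64 of the 120 peaks (53.3%, 44 to 62.5). Windows of the same length 1000 nt to the left and right of these peaks held one in 9 (7.50%, 3.49 to 13.8) and 5 (4.17%, 1.37 to 9.46) of 120. All 4843 single-copy ChAT peaks of the list held one in 31.8% (30.5 to 33.1), and all 947 single-copy SATB1 peaks in 47.5% (44.3 to 50.8). The feature was thus frequent in single-copy peaks of both lists. Its share in the overlapping ChAT peaks, which are themselves part of the ChAT list, lay above that of the whole ChAT list. The interval of the overlapping ChAT peaks overlapped that of the SATB1 list, and the overlapping regions belong to both lists.

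Longer arms were also counted. Arms of at least 15 nt were found in 23 of the 120 overlapping peaks (19.2%, 12.6 to 27.4), in 8.51% (7.74 to 9.33) of all single-copy ChAT peaks, in 13.5% (11.4 to 15.9) of all single-copy SATB1 peaks and in 0 of the 120 windows on each side, which allows up to 3.03% per side. The longest arm in an overlapping peak was 32 nt. Only 1 of the 64 repeats had arms made of A and T alone. The adjacent single-copy peaks held arms of at least 10 nt in 15 of 46 (32.6%, 19.5 to 48), close to the share of the ChAT list.

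**Figure D3:**
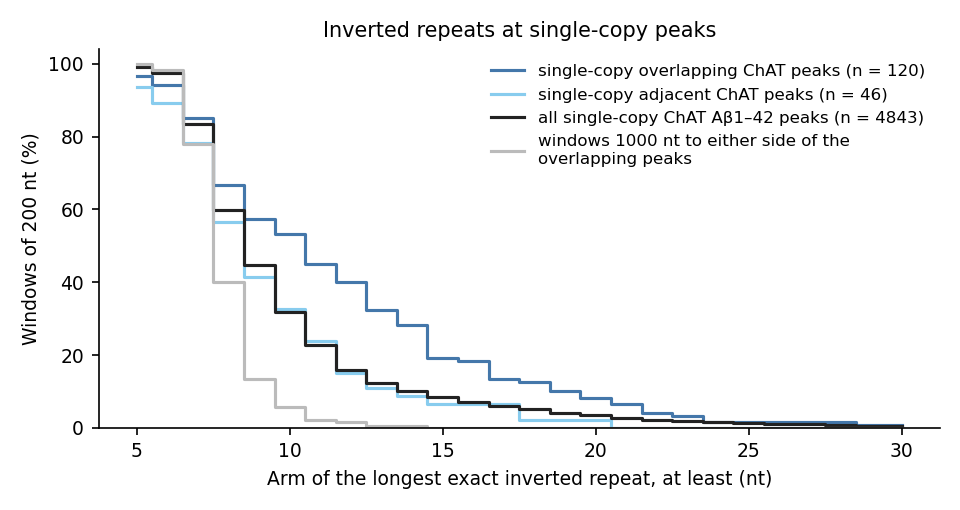
Share of 200 nt windows (%, vertical axis) whose longest exact inverted repeat has arms of at least the length on the horizontal axis (nt), for single-copy overlapping and adjacent ChAT peaks, all single-copy ChAT peaks and windows 1000 nt from the overlapping peaks. At 10 nt the overlapping peaks stand at 53.3%, the adjacent peaks at 32.6% and all single-copy ChAT peaks at 31.8%.

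The repeats were aligned with the peaks. Among the 64 overlapping peaks with arms of at least 10 nt, the outer ends of both arms lay within 10 nt of the peak ends in 29 (45.3%, 32.8 to 58.3), and the same held for 38% (35.6 to 40.5) of such peaks in the whole ChAT list. The median offset was 1 nt for the left arm from the peak start and -3 nt for the right arm from the peak end, a negative offset lying inside the peak. In APP the ChAT peak's window had a longest arm of 9 nt.

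The base composition of the overlapping and the adjacent peaks overlapped widely. Single-copy overlapping peaks had a median AT content of 58.6% (quartiles 48.4 and 67.3). Single-copy adjacent peaks had a median of 53.6% (47.5 and 64.6) and all single-copy ChAT peaks one of 59.8%. The word ATATAT, which is its own reverse complement, occurred in the central 100 nt of 11 of 120 single-copy overlapping peaks (9.17%, 4.67 to 15.8) and of 7.78% of all single-copy ChAT peaks. TCCAT, searched on both strands and shared with arrays of the CATTC pentamer, occurred in the central 100 nt of 41.8% (36.6 to 47.1) of all neighbouring peaks and of 24.9% of the ChAT list. Among single-copy overlapping peaks TCCAT occurred in 18 of 120 (15%, 9.14 to 22.7), against 23.5% of all single-copy ChAT peaks.

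Gaps of adjacent pairs ran from 2 to 992 nt with a median of 359 nt and quartiles of 96 and 606 nt. Short gaps were the most frequent, with 28 of 105 gaps under 100 nt and between 3 and 13 in each further bin of 100 nt. The median gap was 324 nt for single-copy, 380 nt for pentamer-rich and 653 nt for the 7 Alu-matching ChAT peaks, with 132 nt for the 10 tandem and 832 nt for the 6 multi-copy peaks. The ChAT peak had the lower coordinate in 46 pairs and the higher in 59. The largest gaps inside the limit were 975 nt in SLC28A3 and NSD1 and 992 nt at a pentamer-rich peak of chromosome 10, and the first peaks outside it lay at 1019, 1029 and 1041 nt, the last of them in LMNB1. A further 44 ChAT peaks lay beyond 1000 and within 2000 nt.

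**Figure D4:**
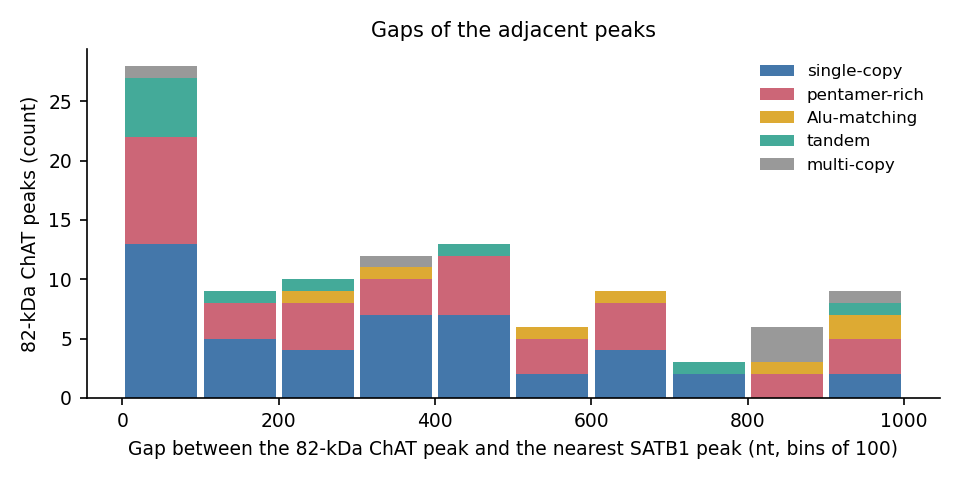
Number of adjacent 82-kDa ChAT peaks (vertical axis) by the gap to the nearest SATB1 peak (horizontal axis, nt, bins of 100), coloured by sequence class. The first bin holds 28 of the 105 peaks and no Alu-matching ChAT peak, and the other bins hold 3 to 13.

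The arrangement of the APP pair was examined in its own kind. For the 20 adjacent pairs with a single-copy ChAT peak and an Alu-matching SATB1 peak, the gap ran from 8 to 975 nt with a median of 379 nt, and 7 gaps were at most 200 nt, that of APP among them. The ChAT peak lay on the side of the Alu tail in 10 pairs and on the side of the head in 10. When the whole Alu copy under the SATB1 peak was outlined by alignment, the ChAT peak reached into it in 4 pairs. It shared 35 nt with the copy in DGKB, 34 nt in BPIFC and 24 nt in VPS8. In the other 16 pairs it stood 30 to 986 nt outside the copy with a median of 390 nt. APP, at 160 nt, was below that median. Its copy was the sequence used for the alignments, with its end set at the end of the SATB1 peak. Neither the side nor the distance was fixed in this group.

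Scores of both proteins were set side by side. Overlapping ChAT peaks had a median score of 73.0 and adjacent ones of 62.8, against 63.4 for the list. Their SATB1 partners had median scores of 71.0 and 64.9. Within the overlapping peaks the pentamer-rich ones had a median of 102 and the single-copy ones of 65.8. Both scores were above the median of their lists in 114 of 247 overlapping and 29 of 105 adjacent pairs. Spearman's rank correlation of the 2 scores was 0.30 over the 247 overlapping and 0.21 over the 105 adjacent pairs, and among the overlapping pairs 0.52 for the 71 pentamer-rich and 0.30 for the 120 single-copy ChAT peaks, across peaks that share libraries, the input and, in repeats, the sequence. The score depends on peak length and read depth as well as on enrichment, and these were not separated.

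The positions of the pairs were uneven. Chromosome 4 held 46 members and chromosome 10 held 37, of which 32 and 26 were pentamer-rich, followed by chromosome 7 with 29, none of them pentamer-rich. Chromosome Y held 14 members, 13 of them pentamer-rich, although only 55 of the 6563 ChAT peaks lay there. These are positions to which reads were mapped on hg38, and whether the cells carry that chromosome was not examined. When peaks less than 10000 nt apart were joined, the 352 members formed 265 loci. The 5 largest loci held 60 members, all pentamer-rich, and the largest spanned chr4:49091252-49156056 with 22 members, 15 of them overlapping. The next were chr10:41885834-41916269 with 18 members and chr4:49632114-49654136 with 10. The 107 pentamer-rich members came from 35 loci and the 166 single-copy members from 162, so pentamer-rich peaks were many per place and single-copy peaks mostly 1 per place. Peaks in 1 array share their sequence and cannot be taken as separate sites.

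The highest scores lay in the arrays. A pentamer-rich pair on an unlocalised sequence of chromosome 17 had ChAT and SATB1 scores of 714.75 and 349.67 over 5262 and 5132 nt. A pair on chromosome 5 at chr5:49601406-49603128 had a ChAT peak of 1723 nt inside a SATB1 peak of 1726 nt, with scores of 325.19 and 92.40. Their 51-nt words mostly occurred once in the assembly, with a median of 1 copy over the pentamer-rich members. This counts exact words in hg38 only, and the copies present in the cells were not measured. Outside chromosomes 1 to 22, X and Y there were 34 members on 18 sequences, 9 of the members on alternate sequences that repeat parts of the chromosomes.

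A smaller share of the neighbouring peaks than of the list lay in a gene. On the annotated chromosomes 130 of 318 members lay in a gene (40.9%, 35.4 to 46.5) against 57.4% of all ChAT peaks, with 91 of 223 overlapping and 39 of 95 adjacent peaks. The class composition moved with this share. Pentamer-rich members lay in a gene in 2 of 88 cases (2.27%, 0.276 to 7.97), where all pentamer-rich ChAT peaks stood at 10.2% (6.8 to 14.4), and single-copy members in 94 of 162 (58.0%, 50 to 65.7), where all single-copy ChAT peaks stood at 60.9% (59.5 to 62.2). Exons were touched by 12 of 318 members (3.77%, 1.96 to 6.50) and the 2000 nt before a transcript start by 18 (5.66%, 3.39 to 8.80), against 5.78% and 7.55% of the list.

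Protein-coding genes touched by a member numbered 105, with 80 touched by an overlapping and 27 by an adjacent peak. A ChAT peak of the Aβ1–42 list lay in 2232 protein-coding genes, a SATB1 peak in 2411 and both in 661, so 15.9% of the genes with both peaks held a neighbouring pair. In 6 genes there were 2 members, and no gene had more.

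Members in genes of neuronal and nuclear function were counted in 7 gene lists. Of 53 synapse assembly and adhesion genes 30 had peaks of both proteins, of 661 such protein-coding genes in all. Of these 30 genes 6 held a neighbouring pair, beside 15.9% of all genes with both peaks. Gene length was not taken into account and no difference was tested, so these are counts only. In CDH18, a classical cadherin of neurons, the ChAT peak scored 92.32 and the SATB1 peak 113.08, and they shared 129 nt. MAGI2, a scaffold protein under synapses, had scores of 83.06 and 90.44 and a shared part of 51 nt. In TENM2, a teneurin that links presynaptic and postsynaptic membranes, the scores were 66.69 and 66.08 and the shared part 96 nt. These 3 genes had overlapping pairs of single-copy sequence with the ends of the 2 peaks at most 28 nt apart.

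CNTNAP5 and CNTNAP2 belong to the neurexin-related contactin-associated proteins. The CNTNAP5 pair shared 85 nt, with a ChAT score of 60.98 and a SATB1 score of 83.65. The CNTNAP2 pair was adjacent, with a gap of 699 nt and an Alu-matching SATB1 peak, and scores of 52.06 and 66.08. SDK1, an adhesion protein of synaptic layers, had an overlapping pair with low scores, 55.89 and 56.02.

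In each of the other lists between 0 and 14 genes had peaks of both proteins. These numbers are too small to set their pairs against the 15.9% of all genes with both peaks. Among 54 transmitter receptors and ion channels 14 genes had both peaks and only GRIK2, a kainate receptor subunit, held a pair, with scores of 56.61 for ChAT and 97.60 for SATB1. Among 30 genes of APP processing and binding 3 had both peaks and APP alone held a pair. Among 55 genes of chromatin, nuclear matrix and histone modification 3 had both, and NSD1, a methyltransferase of histone H3, held an adjacent pair with a gap of 975 nt and scores near the threshold, 51.36 and 50.01. The lists for axon guidance and growth (8 genes with both peaks of 36), cell death and stress response (4 of 44) and cholinergic synthesis, transport and receptors (0 of 20) held no member.

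Overlapping pairs with the highest scores in both lists lay in genes of varied function. DOCK1, an activator of the GTPase Rac, had a ChAT peak of 51 nt inside a SATB1 peak of 62 nt, with scores of 118.57 and 124.10. EYS, an extracellular protein of photoreceptors, had scores of 156.13 and 107.01 on an Alu copy. SH3RF3, a ubiquitin ligase, had a pentamer-rich pair with scores of 211.88 and 90.92 over 578 and 536 nt. The last of these was one of only 2 pentamer-rich members in a gene.

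Further pairs of this kind were in AGPAT3, an acyltransferase of phospholipid synthesis, with scores of 110.74 and 87.14 on an Alu copy, and in GYG1, which primes glycogen synthesis, with 106.38 and 80.43. The GYG1 peaks were 140 and 143 nt long and their ends differed by at most 2 nt. NARF, a protein that binds the farnesylated end of prelamin A, had a pair in exon 11 with scores of 96.02 and 115.45 and 215 nt shared. DIAPH2, a formin that builds actin filaments, had peaks of 118 and 117 nt with the same first base and scores of 94.98 and 102.35. ERICH1 had a tandem pair with scores of 84.62 and 91.30.

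Adjacent pairs with the highest scores were weaker. In VPS8, a subunit of the endosomal tethering complex CORVET, the ChAT score was 83.06 and the SATB1 score 74.44 across a gap of 74 nt. KAZN, a protein of cell junctions, had scores of 74.75 and 69.90 across a gap of 77 nt. DGKB, a diacylglycerol kinase of neurons, had scores of 74.33 and 68.69 at a pair with a gap of 8 nt and 50.25 and 59.99 at a second pair with a gap of 930 nt. In all of these the SATB1 peak matched an Alu copy.

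The remaining adjacent pairs named by score included BPIFC with scores of 66.26 and 74.44 across 26 nt, and MTHFD1L, a mitochondrial folate enzyme, with 66.95 and 77.69 across 319 nt. RLIM, a ubiquitin ligase, and DNAH14, a dynein heavy chain, had gaps of 853 and 886 nt. In CYP19A1, the aromatase that makes oestrogens, 2 ChAT peaks stood on either side of 1 SATB1 peak of score 74.44, at gaps of 385 and 359 nt and with scores of 63.43 and 50.25. TMEM181 had scores of 73.37 and 66.29. Its pair was the only one of the 10 highest-scoring adjacent genes, besides CYP19A1, with a single-copy SATB1 peak.

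The genes ABR, GRAMD4 and PTPRN2 also held 2 members each. ABR had an overlapping tandem pair with scores of 101.22 and 66.24 and an adjacent pair between Alu copies with a gap of 592 nt. GRAMD4 had gaps of 465 and 178 nt. PTPRN2, a receptor phosphatase-like protein of dense-core vesicles, had gaps of 71 and 921 nt. In GRAMD4 and PTPRN2 all ChAT scores lay between 53.54 and 60.91, below the median of the list.

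Presence in vehicle-treated cells separated the sequence classes. Of the 352 members 134 overlapped a ChAT peak of the vehicle list (38.1%, 33 to 43.4), against 448 of all 6563 ChAT peaks (6.83%). A vehicle SATB1 peak was overlapped by 55 members (15.6%, 12 to 19.8), against 2.27% of the list. Peaks in both vehicle lists were overlapped by 51 members (14.5%, 11 to 18.6), against 1.72% (1.42 to 2.07) of the list. Within 1000 nt of a peak of either vehicle list lay 41.8% of the members, and 24.7% without the 1% longest peaks of each list. The members found in vehicle cells were mainly the repeats, as the counts by class showed.

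Pentamer-rich members overlapped a vehicle ChAT peak in 101 of 107 cases (94.4%, 88.2 to 97.9), where all pentamer-rich ChAT peaks did so in 75.2%. The pentamer-rich members were longer than all pentamer-rich ChAT peaks, with medians of 716 and 384 nt, and a longer peak overlaps more readily. Its part in the difference was not tested. Single-copy members overlapped one in 20 of 166 (12%, 7.52 to 18), against 2.73% of all single-copy ChAT peaks. Some of those that did were long, up to 674 nt where the median of the single-copy members was 114 nt. Some lay on unlocalised or alternate sequences. The part of length and position in this difference was not tested either. Alu-matching members did so in 2 of 32 (6.25%, 0.766 to 20.8) against 0.976% of all Alu-matching ChAT peaks, and these 2 peaks were 3885 and 4206 nt long where the median of the Alu-matching members was 116 nt. The Alu copies outlined above were 252 to 303 nt long, so a copy of that length covers only a small part of these 2 peaks. Tandem members did so in 11 of 30 (36.7%, 19.9 to 56.1) against 17.5% of their class. Multi-copy members did so in 0 of 17, which allows up to 19.5%, against 3.32% of their class.

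**Figure D5:**
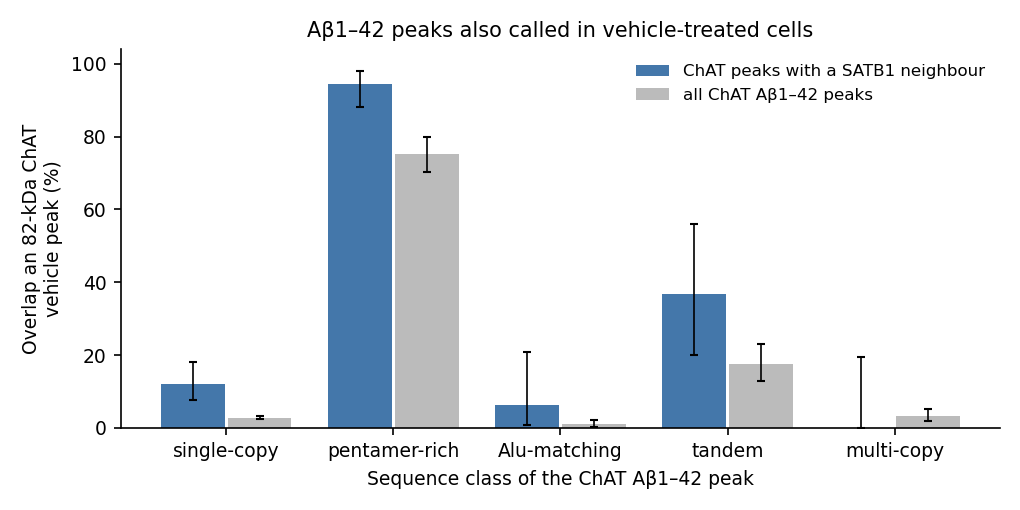
Share of Aβ1–42 82-kDa ChAT peaks (%, vertical axis) that overlap a ChAT peak of vehicle-treated cells, by sequence class, for peaks with a SATB1 neighbour (blue) and all ChAT peaks (grey), with exact 95% intervals as error bars. The pentamer-rich bars stand at 94.4% and 75.2%, and the single-copy bars at 12% and 2.73%.

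Of the genes named above, the peaks in SH3RF3 and ERICH1 overlapped vehicle peaks of both proteins. The ChAT peaks of all the other named genes overlapped no peak of either vehicle list. Among single-copy overlapping members the inverted repeat with arms of at least 10 nt was present in 58 of the 103 that overlapped no vehicle ChAT peak (56.3%, 46.2 to 66.1) and in 6 of the 17 that did (35.3%, 14.2 to 61.7), with wide intervals that overlap.

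Applied to the vehicle lists, the same rule gave more neighbours. In vehicle-treated cells 1085 of 8270 ChAT peaks (13.1%) had a SATB1 neighbour, 773 of them overlapping and 312 adjacent with a median gap of 342 nt, although the SATB1 list was shorter (3065 peaks). Single-copy ChAT peaks overlapped a SATB1 peak in 8.36% of cases in vehicle cells and in 2.48% after Aβ1–42. Adjacent vehicle peaks were mostly pentamer-rich, 191 of 312, and included 37 single-copy and 0 Alu-matching peaks, against 46 single-copy and 7 Alu-matching among the 105 after Aβ1–42. Treatment and library cannot be told apart here.

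Between lists of different treatments a smaller percentage of ChAT peaks had a neighbour. Of the Aβ1–42 ChAT peaks 214 (3.26%) lay within 1000 nt of a vehicle SATB1 peak, and 29 of the single-copy ones overlapped one (0.599%). Of the vehicle ChAT peaks 373 (4.51%) lay within 1000 nt of an Aβ1–42 SATB1 peak, and 54 of the single-copy ones overlapped one (1.18%). These comparisons share lists with the main one and are given side by side only.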

How the data were processed

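The deposited files were 4 lists of peak positions on hg38, 1 for each antibody in each treatment. Reads were mapped by the authors with BWA under repeat masking. MACS then gave peaks at p-values up to 1e-05, and those also present in the input of that treatment were discarded. Each deposited score is a peak's p-value as −log10, multiplied by 10, and ranks peaks within 1 library. Read counts were not analysed here.

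Pairs were found from columns 1 to 3 of the lists on all sequences. The nearest SATB1 peak, or the one with the longest shared part, defined each pair. Genes came from GENCODE 44, sequence from hg38 and Alu matches from blastn 2.17.0 to the Alu copy of the APP pair. The 51-nt words were counted without alternate sequences, which left words found only there at 0. Tandem repeats had units of up to 400 nt. Functions were tested on simulated data (10 of 10 checks passed).

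Shares carry exact 95% intervals. No test was made, since each group had 1 library. The members, gene lists and classes were chosen with earlier results of these data known. Named genes were APP, the genes of the 7 lists that a member touched, the 10 genes with an overlapping and the 10 with an adjacent member whose lower score percentile was highest, and 5 genes with the most members (ties in alphabetical order), protein-coding only. The inverted repeats were looked for after the sequences had been seen. The exact positions and sequence of the APP pair, and some other sequences, are not reported here.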

Additional observations from a re-analysis of the deposited data

How the results depend on the processing

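No paired analysis was possible because each group had 1 library and no result came from a test. Restricting every list to its peaks of median score or higher left 149 neighbours, 115 overlapping and 34 adjacent, a median gap of 174 nt, 32.6% of members in genes, a pentamer-rich share of 38.9% and 421 vehicle neighbours. The counts are lower because fewer peaks enter, and for the gap and the shares the cause was not tested. With single-copy peaks only, chosen after seeing the data, there were 136 neighbours, 114 overlapping, 22 adjacent and 386 vehicle neighbours, with 55.6% of members in genes and 16.2% within 1000 nt of a vehicle peak (41.8% as reported). A distance limit of 200 nt gave 37 adjacent members, a median gap of 54 nt and an Alu share of partners of 13.4%, and limits of 500 and 2000 nt gave median gaps of 180 and 558 nt, so the median gap follows the limit. Without pentamer-rich peaks 69 adjacent members and 722 vehicle neighbours remained, and without peaks whose 51-nt words were mostly multi-copy 60 adjacent members. Leaving out the 1% longest peaks moved the pentamer-rich share to 11.8%, the share in genes to 52% and the share near a vehicle peak to 24.7%. Counting protein-coding genes only gave 34.3% in genes. The other alternatives, 47 of 72, moved counts by at most 1.5 times or stayed within the interval of the reported share or median. With 1 library per group, the depth behind a peak could not be weighed.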
